A study of Rattus norvegicus with 6 samples.

Results

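Genes for RNA splicing, RNA helicases and related RNA-binding proteins were examined in the rat lateral ventricular choroid plexus at embryonic day 15 (E15) and in the adult. They were the 91 genes whose names, in the authors' deposited list of genes with different expression between the ages, begin with the symbols of the Snrp, Lsm, Sf3, Sf1, Prpf, hnRNP, SR protein, Tra2, Rbm, Ddx, Dhx, Cpsf, Cstf, Nova, Ptbp, Mbnl, Khdrbs, Esrp, Lin28, Igf2bp and Msi families. That list holds 10653 of the 29479 gene identifiers that were counted, and 10093 of the listed genes carry a name. Every member had therefore already been selected for a difference between E15 and adult in the same libraries, and the differences given here describe these genes without testing them. Sprague-Dawley rats were used at E15 and at 6 weeks of age (adult), as untreated control animals only. Left and right lateral ventricular plexuses of 10 animals made up each RNA pool, and 3 pools were sequenced at each age. The plexus was taken whole, so that stroma, vessels and the blood within them were sequenced together with the epithelium.

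Introns are removed from pre-mRNA by the spliceosome, which is built from small nuclear RNAs wrapped in rings of Sm or Lsm proteins and from many further proteins that recognise the splice sites. SR proteins mostly favour the use of nearby exons, hnRNP proteins often oppose it, and tissue-regulated factors such as Nova, Ptbp, Mbnl and Esrp set which exons are used in neurons, muscle or epithelia. Ddx and Dhx helicases unwind or remodel RNA during splicing, ribosome assembly and export, and a few of them detect viral RNA. Lin28 and Igf2bp proteins are known from embryonic tissues, where Lin28 blocks the maturation of the let-7 microRNAs.

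The libraries held between 17875089 and 19204440 counts. The 10 most abundant genes took 24.2% to 27.3% of the counts in adult pools and 4.86% to 5.90% at E15, and values were therefore scaled with TMM factors, which estimate library size from the bulk of genes. A normalised count is a raw count divided by the scaled library size and multiplied by 19267507. All 9 epithelial markers matched, of 12 listed, were counted in every pool and were higher in the adult. Their summed normalised count was 479895 to 572371 at E15 against 4228720 to 5156420 in the adult. Ttr (transthyretin) made up most of each sum, and without it the sums were 90166 to 91675 and 562921 to 588962. In pooled tissue, more cells of a type and more RNA per cell cannot be told apart. The pools of each age spread more widely than counting error, and E15 replicate 1 stood furthest from its group (Spearman's rho over genes 0.979 and 0.983 with the other E15 pools, which had 0.996 between them). The labels describe separate pools of animals, so the SDs below cover variation between pools.

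In the comparison of the ages, 76 members were called higher at E15 and 13 higher in the adult, which is 83.5% and 14.3% of them. Called means that edgeR's quasi-likelihood fit gave an adjusted p under 0.05 (Benjamini-Hochberg) among the 16643 genes tested, of which 64.0% were called, 34.7% higher at E15 and 29.3% higher in the adult. Among the 10496 tested genes of the authors' list the shares were 50.3% and 41.7%. The members were selected on this contrast, and nothing is read from their counts. Rbm41 and Lsm5 were not called, with log2 fold changes (E15 over adult) of 0.76 ± 0.39 and 0.87 ± 0.40 (SE). Pools of the ages did not overlap for 88 members, 76 of them higher at E15 and 12 higher in the adult, against 70.1% of all genes tested (38.0% and 32.1%). Changes above 2-fold were seen for 42 members at E15 and 4 in the adult, and 24.9% and 17.9% of all genes were called with such a change. The median log2 fold change was 0.92 over the members, 0.74 over the tested genes of the authors' list and 0.14 over all genes tested.

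**Figure D1:**
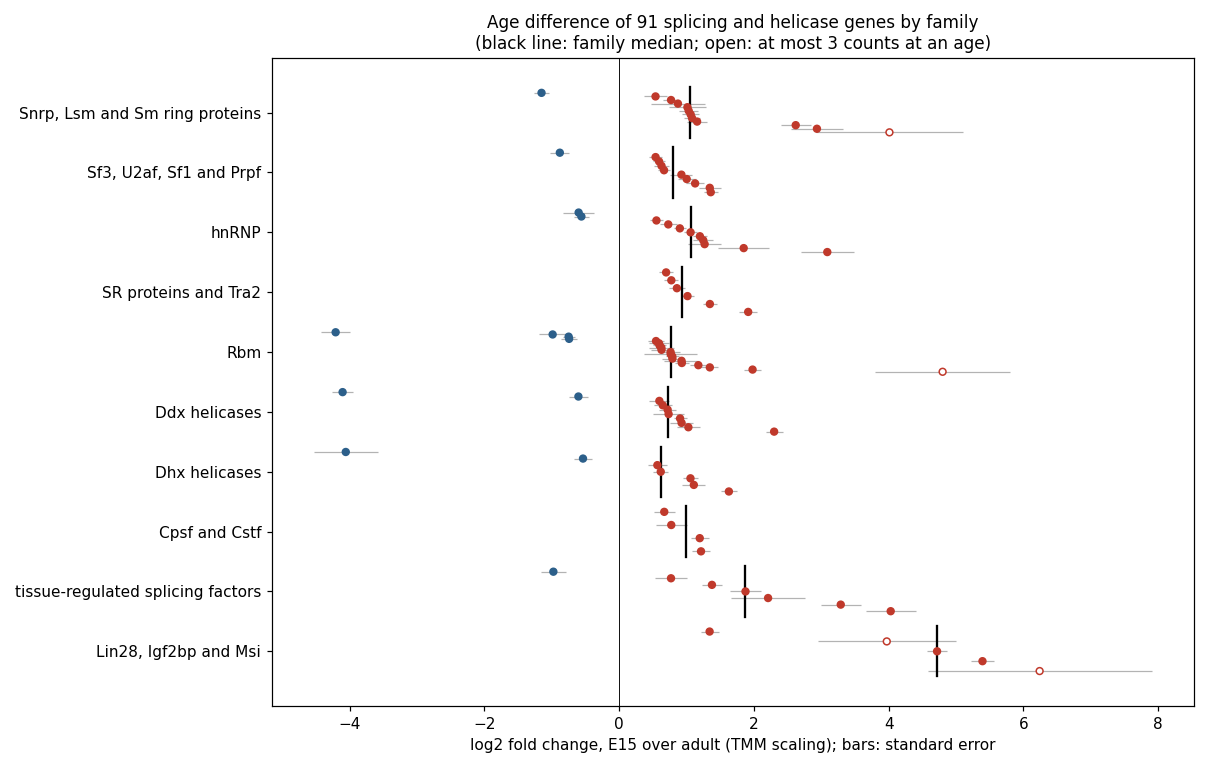
Fitted log2 fold change (E15 over adult, x axis) of each of the 91 members, grouped by family, with its standard error (bars) and the family median (black line); open points had at most 3 counts at an age and their fitted value is not a measured size. Medians lay between 0.62 (Dhx) and 4.72 (Lin28, Igf2bp and Msi), and the lowest values belong to Rbm46, Ddx58 and Dhx58.

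The plot of all members by family shows most genes of every family on the E15 side, with a small set of large adult differences. Smallest among the members were the differences of Dhx40 (log2 fold change -0.54), Lsm4 (0.54) and Sf3b2 (0.54). Genes just outside the authors' list carry no name and were not analysed here by name. Scaling by the total counts alone moved the median of all genes from 0.14 to 0.95 and that of the members from 0.92 to 1.73. On that scale 78 members were called higher at E15 and 4 in the adult (Rbm46, Ddx58, Dhx58 and Snrpn), against 58.9% and 13.8% of all genes, and 6 members changed sign. Directions are therefore relative to the bulk of genes, and those that turned are named where they are described.

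Genes named Snrp or Lsm, mostly for proteins that sit directly on the small nuclear RNAs, were 12 members. Of these, 10 were called higher at E15 and 1, Snrpn, higher in the adult, with a median log2 fold change of 1.05. Snrpa, the A protein of the U1 particle, had 808, 1124 and 1256 normalised counts in E15 pools against 218, 169 and 132 in adult pools. It was 6.15-fold higher at E15 (log2 fold change 2.62 ± 0.22, SE), with no overlap between the ages. Lsm11 belongs to the U7 particle, which trims the ends of histone mRNAs, and had 90.9, 123 and 144 normalised counts at E15 against 19.8, 7.79 and 19.2 in the adult (2.94 ± 0.39). Snrpg, a subunit of the Sm ring, went from 639 ± 52.4 at E15 to 287 ± 41.4 in the adult (SD, n = 3 pools). The other ring subunits Snrpf and Snrpd2 had log2 fold changes of 1.01 and 0.77, and the Lsm ring subunits Lsm3, Lsm4, Lsm5 and Lsm7 lay between 0.54 and 1.06. Lsm4 overlapped between the ages, since 959 in E15 replicate 1 was below the 975 of an adult pool, and it lost its call without adult replicate 1, adult replicate 3 or E15 replicate 3. Lsm5 had 213 in E15 replicate 1 and 86.2 and 83.1 in the other E15 pools, with 56.3 to 82.1 in the adult, and was called higher at E15 without E15 replicate 2 or 3 and under total-count scaling (1.68). Snrpel, which RefSeq names Snrpe-ps1, a pseudogene of the ring protein Snrpe, had 6, 12 and 17 raw counts at E15 against 0, 1 and 0 in the adult. That is a 20.3-fold ratio with an exact 95% interval of 3.42 to 826, and since reads without a unique place were discarded, its share of Snrpe reads is uncertain. Without adult replicate 2 the ratio became a lower bound of 4.41-fold.

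Snrpb and Snrpn encode closely related Sm proteins, SmB and SmN, that take the same place in the ring, and they moved in opposite directions. Snrpb had 2772, 3186 and 3366 normalised counts at E15 against 1454, 1380.4 and 1574 in the adult (1.08 ± 0.11). Snrpn, an imprinted gene expressed from the paternal allele and known from brain and heart, had 534, 519.8 and 553 at E15 against 1226, 1139 and 1210.1 in the adult (-1.15 ± 0.11). Every E15 pool lay above every adult pool for Snrpb and below for Snrpn. Within a library, where the scaling cancels, the ratio of Snrpb to Snrpn raw counts was 5.80 ± 0.533 at E15 against 1.23 ± 0.0602 in the adult, a 4.71-fold difference. The promoters of the pair are shown to set the 2 genes side by side. They are taken from RefSeq (build GRCr8) and run from 250 bases before to 50 bases after the annotated start, 5′ to 3′ on the gene's strand. Snrpb lies at chr3:137832430-137832729 and Snrpn at chr1:120338870-120339169, both on the minus strand. Capitals mark matches to a CCAAT box (CCAAT, or ATTGG on the other strand) and to the core CCGGAAG bound by ETS factors.
Snrpb: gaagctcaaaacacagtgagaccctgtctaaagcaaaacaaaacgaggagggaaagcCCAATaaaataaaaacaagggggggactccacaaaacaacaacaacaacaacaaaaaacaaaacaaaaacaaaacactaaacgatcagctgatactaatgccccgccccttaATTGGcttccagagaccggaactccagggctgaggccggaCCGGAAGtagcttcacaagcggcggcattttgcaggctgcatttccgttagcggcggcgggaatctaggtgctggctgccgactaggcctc
Snrpn: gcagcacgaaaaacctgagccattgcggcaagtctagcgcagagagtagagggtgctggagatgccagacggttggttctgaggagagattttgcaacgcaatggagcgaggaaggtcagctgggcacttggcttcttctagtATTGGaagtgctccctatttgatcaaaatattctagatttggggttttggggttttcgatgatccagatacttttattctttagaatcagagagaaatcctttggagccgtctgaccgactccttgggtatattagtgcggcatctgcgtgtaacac
The Snrpb promoter holds the ETS core at -41 and CCAAT boxes at -193 and -81, counted from the start, and that of Snrpn holds 1 CCAAT box, at -107. GC content is close, with 49.7% and 47.7%, and both lie below the median of 60.0% of the 78 members that have a promoter in RefSeq.

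Genes named Sf3, Sf1 or Prpf, mostly for proteins of the U2 particle and the tri-snRNP, contributed 10 members. Of these, 9 were called higher at E15 and 1 higher in the adult, with a median log2 fold change of 0.79. Sf3b3, a scaffold of the SF3b complex that holds the branch site, had 4354, 3842 and 3995 normalised counts at E15 against 1535, 1554 and 1663 in the adult (1.36 ± 0.10). Sf3a2, of the partner complex SF3a, showed a like log2 fold change of 1.34 ± 0.17, and Sf3b4, which contacts RNA upstream of the branch site, one of 1.13 ± 0.14. The most abundant by raw count was Sf3b2, at 6819 ± 127 and 4690.0 ± 239. Sf1 binds the branch site before U2 does and had 5845 ± 100.003 at E15 against 3685 ± 48.1 in the adult. Prpf31 and Prpf3, proteins of the U4/U6 particle, had log2 fold changes of 1.002 and 0.63. Prpf18 acts in the second step of splicing and stood apart, with 1795, 1294 and 1283 at E15 against 2651, 2669 and 2736 in the adult (-0.88 ± 0.14). Its difference fell to -0.08 under scaling by total counts and was no longer called.

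Of the 11 hnRNP members, 9 were called higher at E15 and 2 higher in the adult, with a median log2 fold change of 1.06. Hnrnpa0, which binds AU-rich elements of inflammatory mRNAs, had 1585, 4899.6 and 5262 normalised counts at E15 against 406, 480.5 and 493 in the adult. E15 replicate 1 was low among the E15 pools but above every adult pool, and the log2 fold change of 3.09 ± 0.39 lay between 2.81 and 3.46 when 1 library at a time was left out. Hnrpd, whose name is that of an AU-rich element binding protein while the description in the authors' list reads hnRNP C, had 8175 ± 1839 and 3444 ± 43.5 (1.25 ± 0.15). Hnrnpr, a partner of neuronal mRNAs, had 197 ± 7.76 at E15 against 81.8 ± 21.4 in the adult (1.27 ± 0.24). Hnrnpa1, a repressor of exon use with many processed copies in mammalian genomes, had only 50.7 ± 6.33 and 13.9 ± 4.81, and its unique reads may be a small part of its transcripts. Hnrnpl, a regulator that binds CA repeats, was the most abundant hnRNP member by raw count and changed least among those higher at E15, with 8893 ± 542 and 6063 ± 407 (0.55 ± 0.10). The other members, Hnrnpf, Hnrpm, Hnrnpul1 and Hnrnpab, had log2 fold changes of 1.20, 1.06, 0.90 and 0.73.

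Both hnRNP members on the adult side depended on the scaling. Hnrnpk, a poly(C)-binding protein, had 6048, 3183 and 3255 normalised counts at E15 against 5875, 6495 and 6586 in the adult (-0.60 ± 0.23), and total-count scaling turned its sign to 0.20. E15 replicate 1 overlapped the adult pools, and the call was kept without that pool (-0.98) but lost when any of the other 5 libraries was left out. Hnrnph2 binds runs of G and had 3302 ± 346 at E15 against 4873 ± 320.3 in the adult (-0.56 ± 0.11), with a sign that total-count scaling turned to 0.25. Its relative Hnrnpf, which binds the same kind of sequence, lay on the E15 side. The raw counts of Hnrnpf were 1.13 ± 0.199 times those of Hnrnph2 at E15 against 0.331 ± 0.0346 times in the adult, a 3.41-fold difference within libraries that no scaling alters.

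Genes named Sfrs, mostly for SR proteins, and Tra2b gave 6 members, all called higher at E15, with a median log2 fold change of 0.94. Sfrs7, now Srsf7, couples splicing to mRNA export and had 892, 1030.3 and 1054 normalised counts at E15 against 285, 247 and 258 in the adult (1.91 ± 0.13, 3.77-fold). Sfrs2 (Srsf2), which stays in the nucleus and activates exons, had 5157 ± 493 and 2029 ± 37.2 (1.35 ± 0.11). Sfrs4 (Srsf4) had 2299 ± 101 and 1139 ± 63.1 (1.01 ± 0.10). Sfrs9, Sfrs14 (Sugp2 in RefSeq) and Tra2b had log2 fold changes of 0.77, 0.86 and 0.70. All 6 kept their E15 call in every fit with 1 library left out, but they were selected on this contrast and nothing is read from this. Total-count scaling moves values towards E15 and so could not test their direction.

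Rbm genes are a naming class of proteins with RNA recognition motifs, with unlike roles, and the 19 members ranged from -4.21 to 4.80 (log2 fold change) with a median of 0.76. Of these, 14 were called higher at E15 and 4 higher in the adult. Rbm15b, which guides an adenosine methyltransferase to RNA, had 1015, 1020.3 and 1032 normalised counts at E15 against 229, 266 and 282 in the adult (1.98 ± 0.13). Rbm9 is the older name of Rbfox2, a splicing factor that reads UGCAUG, and had 581 ± 3.99 at E15 against 229 ± 7.77 in the adult (1.35 ± 0.13). Rbm33 had 1295 ± 63.7 and 574 ± 50.6 (1.17 ± 0.12). Rbm24, known from muscle splicing, had few reads, with 10, 27 and 24 raw counts at E15 against 0, 1 and 0 in the adult, a 35.4-fold ratio with an exact interval of 6.12 to 1422, and at least 7.68-fold without adult replicate 2. Rbm3, induced by cold, had 5076 normalised counts in E15 replicate 1 and 2365 and 2548 in the other E15 pools, against 1753 ± 53.2 in the adult, and lost its call without adult replicate 1 or adult replicate 3. Rbm10, Rbm5 and Rbm17, spliceosome-associated regulators, had log2 fold changes of 0.79, 0.60 and 0.76. Rbm42 (0.63) lost its call without adult replicate 3 or E15 replicate 3.

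Rbm46 had the largest adult difference of all members. It is known from germ cells, belongs with Rbm47 to the relatives of the APOBEC1 complementation factor, and had 36.0, 27.7 and 24.3 normalised counts at E15 against 552, 471 and 609.8 in the adult (-4.21 ± 0.21, 18.5-fold). All adult pools lay more than 10-fold above the highest E15 pool, and the log2 fold change stayed at -3.40 under total-count scaling. Rbm47, an RNA-binding protein of epithelia, had 2758, 2684 and 2803 at E15 against 4689.6, 4715 and 4469 in the adult (-0.75 ± 0.09), and its sign turned to 0.055 under total-count scaling. Rbm43 had 128 ± 6.05 and 255 ± 54.5 (-0.99 ± 0.21), a difference that total-count scaling lowered to -0.18 and that was then no longer called. Rbm45 (-0.74 ± 0.12) turned to 0.06 under total-count scaling. The promoter of Rbm46, at chr2:170540019-170540318 on the minus strand of GRCr8, is shown as that of the member most in favour of the adult. Capitals mark CCAAT boxes (here ATTGG), an E-box CACGTG and an E2F match (TTTGGCGC, here on the other strand).
Rbm46: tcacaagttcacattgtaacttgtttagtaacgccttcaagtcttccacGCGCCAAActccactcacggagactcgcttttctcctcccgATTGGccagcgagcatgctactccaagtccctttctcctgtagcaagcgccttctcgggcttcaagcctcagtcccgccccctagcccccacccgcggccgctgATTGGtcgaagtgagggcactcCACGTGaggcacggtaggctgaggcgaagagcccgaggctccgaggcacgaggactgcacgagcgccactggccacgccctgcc
The CCAAT boxes begin at -160 and -56, the E-box at -34 and the E2F match at -201.

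**Figure D2:**
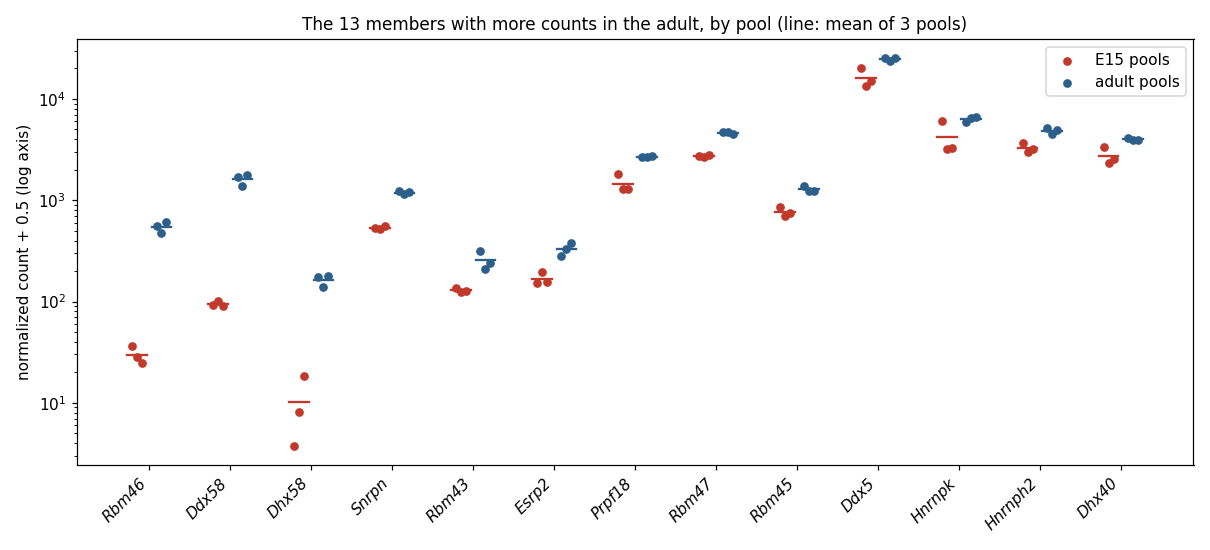
Normalised count plus 0.5 (log axis) of the 13 members with higher levels in the adult, by pool, for E15 (red) and adult (blue), with the mean of 3 pools (line). Rbm46, Ddx58 and Dhx58 are separated by more than 10-fold in their means, and an E15 pool of Hnrnpk lies among the adult pools.

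Of the 10 Ddx helicases, 8 were called higher at E15 and 2 higher in the adult, with a median log2 fold change of 0.73. Ddx39, now Ddx39a, acts in splicing and mRNA export and had 1141, 1296 and 1238 normalised counts at E15 against 268, 251 and 228 in the adult (2.30 ± 0.13, 4.92-fold). Ddx54 and Ddx49, helicases of the nucleolus with a part in ribosome assembly, had log2 fold changes of 1.03 ± 0.17 and 0.93 ± 0.17. Ddx27 and Ddx56, likewise nucleolar, had 0.65 and 0.72. Ddx41 had 251 in E15 replicate 1 and 427 and 452 in the other E15 pools, against 205 to 248 in the adult, and lost its call without adult replicate 2 or 3 and without E15 replicate 2 or 3. The paralogs Ddx5 and Ddx17, which take part in microRNA processing and in transcription as well as in splicing, differed in direction. Ddx5 had 16255 ± 3484 at E15 against 24734 ± 779 in the adult (-0.61 ± 0.14), turning to 0.20 under total-count scaling, while Ddx17 had 6516 ± 263 and 3483 ± 211 (0.90 ± 0.10). Raw counts of Ddx17 were 0.413 ± 0.0907 of those of Ddx5 at E15 against 0.141 ± 0.00491 in the adult, a 2.94-fold difference within libraries.

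Ddx58 and Dhx58 encode RIG-I and LGP2, cytoplasmic helicases that detect viral RNA, and both were far higher in the adult. Ddx58 had 91.7, 102 and 89.4 normalised counts at E15 against 1705, 1383 and 1789.7 in the adult, a 17.2-fold difference (-4.11 ± 0.15). Dhx58 had 4, 10 and 23 raw counts at E15 against 124, 106 and 130 in the adult, a 16.7-fold difference after scaling (-4.06 ± 0.47). E15 replicate 3 held most of the E15 reads of Dhx58, and without it the difference was 29.0-fold. Over all fits that left out 1 library, the log2 fold change of Dhx58 lay between -4.86 and -3.66. Ddx58 and Dhx58 both remained under total-count scaling, at -3.30 and -3.25. The third helicase of this family is Ifih1 (MDA5), and Mavs is the adaptor of RIG-I and MDA5. Both genes are no members and were looked up after these values had been seen. Ifih1 had 80.4 ± 4.51 at E15 against 657 ± 15.2 in the adult (-3.03 ± 0.14), and Mavs 453 ± 83.7 and 988 ± 40.1 (-1.12 ± 0.15). Under total-count scaling Ifih1 stayed called, at -2.22, and Mavs lost its call, at -0.32. Of 7 macrophage markers matched, 3 were called higher at each age, and their summed normalised count was 2166 to 2589 at E15 against 2199 to 3103 in the adult, with no gene at 0 in any pool. Without Lyz2, the most abundant of them, the sum was 2135 to 2547 at E15 against 881 to 1261 in the adult, and under total-count scaling 1 marker, Lyz2, stayed called higher in the adult. The part of macrophages in the levels of Ddx58 and Dhx58 was not tested.

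Among the 7 Dhx helicases, 5 were called higher at E15 and 2, Dhx58 and Dhx40, higher in the adult, with a median log2 fold change of 0.62. Dhx32 had 3897, 3244 and 3464 normalised counts at E15 against 1119, 1057 and 1255 in the adult (1.63 ± 0.12). Dhx37, a helicase of small ribosomal subunit assembly, had 631, 927 and 900.2 against 368, 421 and 352 (1.11 ± 0.17). Dhx8, which releases finished mRNA from the spliceosome, had 1339 ± 24.3 and 643 ± 61.04 (1.06 ± 0.12). Dhx33 and Dhx57 differed by 0.57 and 0.62. Dhx40 had 2754 ± 521 and 3997 ± 75.1 (-0.54 ± 0.14) and turned to 0.27 under total-count scaling.

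The promoters of Ddx39 and Sfrs7 are shown as those of the members with an ETS core and the largest E15 differences. They lie at chr19:41331364-41331663 on the minus strand and at chr6:20563802-20564101 on the plus strand of GRCr8, and capitals mark the core, CCGGAAG or its reverse complement.
Ddx39: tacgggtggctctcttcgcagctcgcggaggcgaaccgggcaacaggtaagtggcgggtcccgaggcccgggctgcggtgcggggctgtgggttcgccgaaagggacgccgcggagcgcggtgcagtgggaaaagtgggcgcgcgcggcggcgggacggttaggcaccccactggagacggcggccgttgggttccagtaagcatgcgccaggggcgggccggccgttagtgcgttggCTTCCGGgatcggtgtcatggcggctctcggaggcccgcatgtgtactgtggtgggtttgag
Sfrs7: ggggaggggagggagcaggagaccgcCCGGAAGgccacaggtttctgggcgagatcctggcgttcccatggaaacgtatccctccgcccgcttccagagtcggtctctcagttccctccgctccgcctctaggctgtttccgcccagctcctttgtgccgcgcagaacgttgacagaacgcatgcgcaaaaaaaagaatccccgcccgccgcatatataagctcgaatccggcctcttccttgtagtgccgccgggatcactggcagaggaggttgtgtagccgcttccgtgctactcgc
The core begins at -12 in Ddx39 and at -224 in Sfrs7. It was found, on either strand, in 23 of the 78 members with a promoter (29.5%), in 21 of 68 members higher at E15 and in 2 of 10 higher in the adult (Rbm45 and Prpf18), and in 9.22% of all 27457 rat promoters of the same length. The members' promoters were richer in GC (median 60.0% against 52.3%) and in CpG (median 23 against 7 per promoter), and base composition was not held equal in this comparison. A CCAAT box was present in 48.7% of members and 37.7% of all promoters. The E-box CACGTG was found in 9 members (6.65% of all promoters) and TATAAA in 7 (14.3%). Rarer matches were the NRF1 motif in 3 members (0.932% of all), the YY1 motif in 1 (0.798%), TGACGTCA for CREB in 2 (1.91%), TTTCCCGC for E2F in 3 (1.03%) and TTTGGCGC for E2F in 1 (0.521%). The interferon-stimulated response element was found in Ddx49, Lsm5 and Rbm43 and in 3.77% of all promoters. The promoters of Ddx58 and Dhx58 were not analysed here. A match is a run of letters in the window and does not show that a factor binds there.

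Genes named Cpsf or Cstf, mostly for cleavage and polyadenylation factors, were 4 members, all called higher at E15, with a median log2 fold change of 0.98. Cpsf1, the largest subunit of the cleavage and polyadenylation specificity factor, had 1662, 2154 and 2269 normalised counts at E15 against 913, 870.0 and 839 in the adult (1.21 ± 0.14). Cstf1, of the cleavage stimulation factor, had 712, 853 and 907 against 349.7, 349 and 380.5 (1.20 ± 0.14). Cpsf4, which reads the polyadenylation signal, had 157 ± 13.6 and 92.1 ± 18.2 (0.77 ± 0.23) and lost its call without adult replicate 2 or E15 replicate 2. Cpsf3l, now Ints11, is the endonuclease of the Integrator complex and differed by 0.67 ± 0.16.

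Tissue-regulated splicing factors were 7 members, of which 6 were called higher at E15 and 1 higher in the adult, with a median log2 fold change of 1.87. Nova2, a neuronal factor that reads YCAY clusters, had 152, 256 and 242 normalised counts at E15 against 17.0, 15.6 and 6.87 in the adult (4.03 ± 0.37, 16.3-fold). Its paralog Nova1 differed less, with 294 ± 42.8 and 173 ± 56.2 (0.77 ± 0.24), and lost its call without adult replicate 1 or 2 and without E15 replicate 2 or 3. Nova2 had 0.728 ± 0.0954 times the raw counts of Nova1 at E15 against 0.0871 ± 0.0506 times in the adult. Khdrbs3, a STAR family factor of neurons, had 876, 531 and 567 at E15 against 56.6, 96.1 and 48.1 in the adult (3.29 ± 0.30). Ptbp2, the polypyrimidine tract protein of developing neurons, had 2018, 1089.6 and 1230.4 at E15 against 416, 329.8 and 437 in the adult (1.87 ± 0.23). Ptbp1, its counterpart in most other cells, had 4271, 6041 and 6324 at E15 against 2144, 2288 and 1975 in the adult (1.38 ± 0.15). The ratio of Ptbp1 to Ptbp2 raw counts overlapped between the ages, with 4.27 ± 1.87 at E15 against 5.54 ± 1.25 in the adult, and was lowest in E15 replicate 1 (2.12).

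Mbnl3 and Mbnl1 are muscleblind proteins, known for switching exons as muscle and brain mature. Mbnl3 had 81.0, 50.1 and 63.5 normalised counts at E15 against 2.83, 23.4 and 15.1 in the adult (2.21 ± 0.54). Mbnl1, listed by the authors under another name and so no member, had 217 ± 2.90 and 609 ± 26.2 (-1.49 ± 0.13). Raw counts of Mbnl3 were 0.299 ± 0.0716 of those of Mbnl1 at E15 against 0.0231 ± 0.0177 in the adult, a 12.9-fold difference. That difference became 20.1-fold without adult replicate 2 and 9.21-fold without adult replicate 1. Esrp2, a factor of epithelial cells, was the family's adult-side member, with 151, 196 and 155 at E15 against 282, 331 and 375 in the adult (-0.98 ± 0.19), lowered to -0.17 and not called under total-count scaling. The epithelial markers given above were higher in the adult as well, and their part in the level of Esrp2 was not tested. Its paralog Esrp1, also under another name, had 0, 0 and 1 raw counts at E15 against 19, 16 and 12 in the adult. That is an 80.9-fold ratio in favour of the adult, with an exact interval of 13.8 to 3264. Without E15 replicate 3, which held the single E15 read, it became a lower bound of 17.9-fold, and it lay between 53.2-fold and 89.98-fold without any of the others, lowest without E15 replicate 2.

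**Figure D3:**
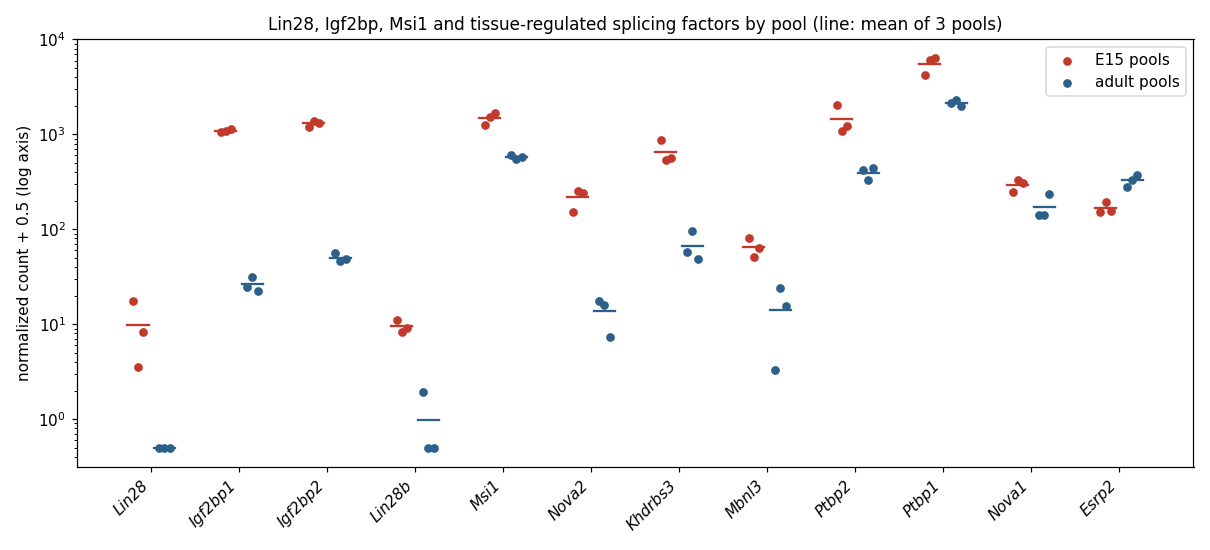
Normalised count plus 0.5 (log axis) of the Lin28, Igf2bp and Msi members and of the tissue-regulated splicing factors, by pool, for E15 (red) and adult (blue), with the mean of 3 pools (line). Esrp2 is the gene with the adult pools above the E15 pools, and the 3 adult pools of Lin28 lie at 0 counts.

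**Figure D4:**
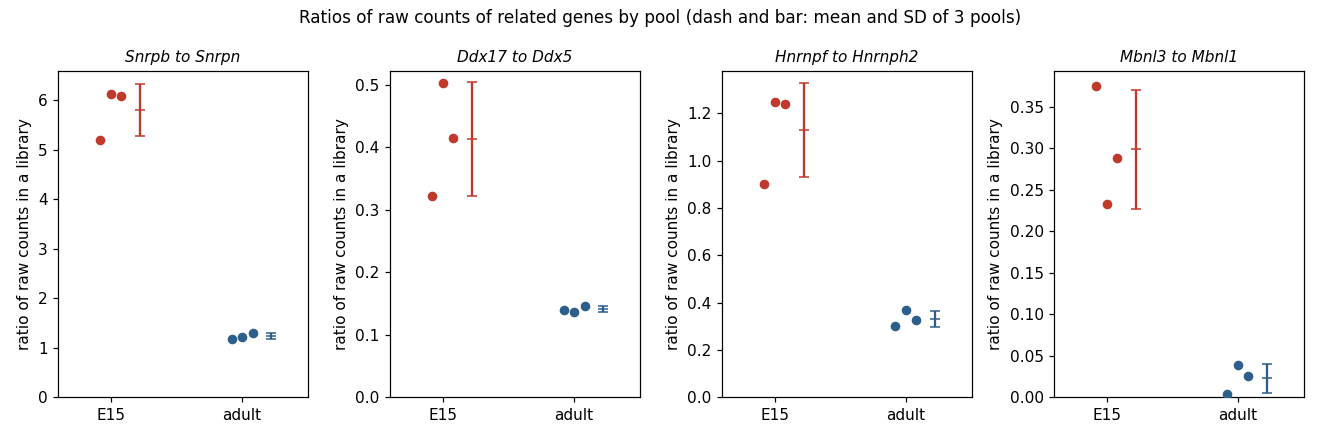
Ratio of raw counts of related genes within each library (y axis, linear from 0) at E15 (red) and in the adult (blue), with mean and SD of 3 pools beside the points. Snrpb to Snrpn falls from 5.80 to 1.23, Ddx17 to Ddx5 from 0.413 to 0.141, Hnrnpf to Hnrnph2 from 1.13 to 0.331 and Mbnl3 to Mbnl1 from 0.299 to 0.0231, without overlap between the ages.

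The plot of ratios within libraries places these related genes on a scale that library scaling cannot move, and the pairs in it were chosen after their values had been seen. Markers of developing neurons were mostly higher at E15, as were the neuronal splicing factors. Of 13 such markers matched, 12 were called higher at E15, and their summed normalised count was 5674, 1877 and 4290 over the E15 pools, against 146, 731 and 194 over those of the adult. Neurod6, Nhlh1 and Nhlh2 had 0 counts in every adult pool. Elavl3 and Elavl4 are among these markers and also among the other RNA-binding regulators given below. Khdrbs3, Ptbp2 and Mbnl3, like the sum of these markers, were highest in E15 replicate 1, whereas Nova2 and Nova1 were lowest there, and single markers such as Tubb3 and Neurog2 were highest in E15 replicate 3. Among adult pools the marker sum was highest in adult replicate 2, as were Khdrbs3 and Mbnl3, while Ptbp2 was lowest there, Nova2 was highest in adult replicate 1 and Nova1 in adult replicate 3. The part of neurons in these levels was not tested. Markers of mature neurons (7 matched) were called higher at E15 for 2 and higher in the adult for 4. Rbfox3, higher at E15, is 1 of them and is also given below among the genes under other names. Markers of oligodendrocytes (9 matched) were called higher at E15 for 3 and higher in the adult for 5. Under total-count scaling 1 mature neuron marker and 3 of oligodendrocytes stayed called higher in the adult.

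Lin28, Igf2bp and Msi genes were 5 members, all called higher at E15 with the largest family median, 4.72 by fitted values and 3.97 with Lin28 set at its lower bound. Igf2bp1, which binds and stabilises mRNAs of embryonic tissue, had 1048, 1087 and 1134 normalised counts at E15 against 24.1, 31.2 and 21.98 in the adult, a 42.01-fold difference (5.39 ± 0.17). Igf2bp2 had 1209.7, 1383 and 1327 at E15 against 55.2, 45.4 and 48.1 in the adult, a 26.3-fold difference (4.72 ± 0.15). The pools of each age lay close together for both genes. Lin28, now Lin28a, had 21, 4 and 10 raw counts at E15 against 0 in every adult pool, so it was at least 6.78-fold higher at E15 when up to 3 counts are allowed over the adult pools. This bound was lowest without E15 replicate 1 (3.997-fold) and lay between 4.41-fold and 9.12-fold without any of the others. Lin28b had 13, 10 and 11 raw counts at E15 against 1, 0 and 0 in the adult, a 19.7-fold ratio with an exact interval of 3.31 to 803. Without adult replicate 2 the ratio was 12.8-fold, and without adult replicate 1 it became a lower bound of 4.47-fold. Msi1, a translational regulator of neural progenitors, remained at 582 ± 28.1 in the adult against 1476 ± 212 at E15 (1.34 ± 0.13).

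Lin28 proteins are known to bind a GGAG motif in the terminal loop of let-7 precursors. Rat let-7 hairpins with and without the motif are shown as background to the 2 Lin28 genes, and let-7 itself was not measured here. They are RefSeq sequences on the plus strand of GRCr8, let-7a-1 at chr17:16320133-16320226, let-7f-2 at chrX:24460045-24460127 and let-7c-2 at chr7:118683623-118683717. Capitals mark GGAG.
let-7a-1: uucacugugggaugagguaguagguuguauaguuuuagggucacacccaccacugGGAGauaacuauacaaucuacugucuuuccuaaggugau
let-7f-2: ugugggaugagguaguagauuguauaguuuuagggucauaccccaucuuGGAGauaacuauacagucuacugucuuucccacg
let-7c-2: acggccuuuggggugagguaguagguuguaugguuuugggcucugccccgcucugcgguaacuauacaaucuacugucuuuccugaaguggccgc
Of the 11 rat let-7 hairpins in the RefSeq table used here, 9 hold GGAG, and so do 172 of all 419 rat hairpins in it (41.1%). Those without it are let-7c-2 and the entry antisense to let-7f-1, whose product carries another microRNA name. The let-7b hairpin was not analysed here. The list written around Lin28 and let-7 holds 24 genes, 15 of them matched and 4 of these members. Apart from Igf2, which was higher in the adult (-3.72), the other 14 were called higher at E15, with a list median of 3.97 by fitted values and 3.54 with genes at 0 counts set at their bound. Hmga2 and Trim71, known let-7 targets, had 0 counts in every adult pool, and Mycn had 2, 0 and 3 raw counts there against 349, 327 and 516 at E15. Proliferation markers rose together with them, 8 of 8 matched being called higher at E15, with a summed normalised count of 12653 to 15207 at E15 against 2169 to 2371 in the adult. Markers of neural progenitors were called higher at E15 for 9 of 9 matched, with sums of 31262 to 31737 and 2874 to 3857. Vim, which is also known from stroma, made up most of the E15 sum, and without it the E15 pools held 8443, 4319 and 5621 against 2006 to 2097 in the adult. Sums without the most abundant marker were added after the values had been seen. The part of dividing or progenitor cells in the levels of the members was not tested.

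Variation among the members within an age was small in most pools. The median coefficient of variation was 10.3% at E15 against 7.66% in the adult. Of the members, which were selected on this contrast, 82 were called in every fit that left out 1 library. The matching share of all genes was not computed, and nothing is read from this count. E15 replicate 1 held the largest deviation among the E15 pools for 63 members, against 15 for replicate 2 and 13 for replicate 3. Its level differed by more than 0.5 on the log2 scale from the mean of the other E15 pools for 24 members. Rbm3, Rbm41, Lsm5, Snrpf, Hnrnpk, Ptbp2 and Khdrbs3 were high there and Hnrnpa0, Nova2 and Ddx41 low. Snrpf, for example, had 685 normalised counts in replicate 1 and 320.3 and 380.3 in the others. Without this library the log2 fold change of Lsm5 was 0.28, the calls for members were again 76 at E15 and 13 in the adult, and no member lost its call.

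**Figure D5:**
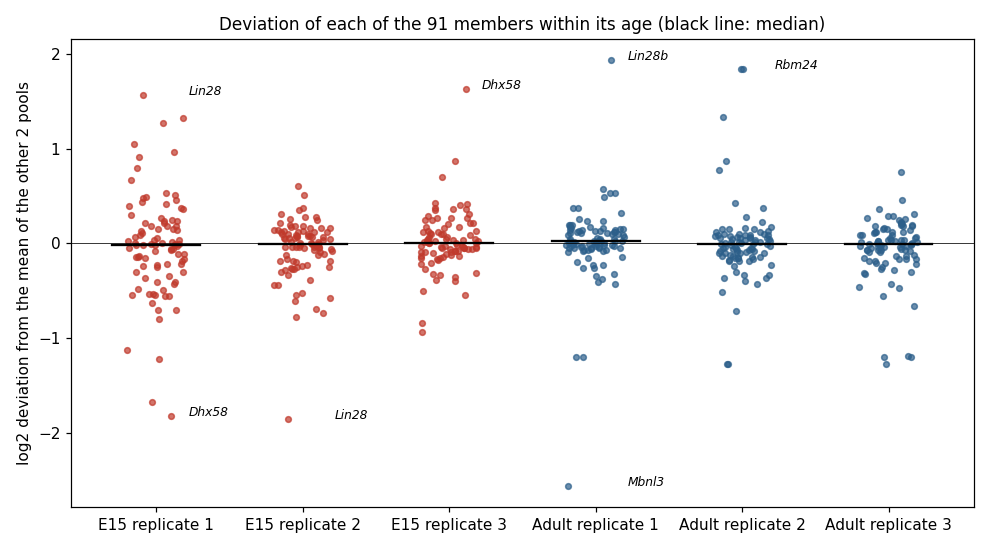
Deviation of each of the 91 members in a pool from the mean of the other 2 pools of its age (y axis, log2 of normalised count plus 0.5), with the median of each pool (black line) and the most extreme genes beyond 1.3 named. The medians lie near 0, and E15 replicate 1 spreads more widely than the other E15 pools, with a median absolute deviation of 0.24 against 0.13 and 0.13.

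The plot of deviations by pool shows that the wide adult outliers are genes with few reads, such as Lin28b and Mbnl3. Further genes of these families appear in the authors' list under other names, and 13 were found through the RefSeq accession or synonym given there. Besides Mbnl1 and Esrp1 they include Rbfox3 (2.78), Celf5 (2.38), Rbm38 (2.09), Lsm6 (1.87), Ddx39b (1.38), Rbfox1 (1.33), Ptbp3 (0.93), Celf2 (0.93), Srsf10 (0.70) and Prpf40b (0.64) as log2 fold changes at E15 over adult. Srsf12 (-0.72) was not called.

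Other genes of RNA processing were taken from lists of known components. Of 60 further spliceosome components 24 were matched, with 19 called higher at E15 and 4 higher in the adult, and a median log2 fold change of 0.86, from 1.28 for Rnps1 to -0.94 for Cdc5l, a core protein of the active spliceosome. Snrnp48, of the minor spliceosome, was not called (0.70). Of the SR protein kinases only Srpk2 was matched, at -0.83, and it was called higher in the adult. Exon junction, export and decay factors were called higher at E15 for 7 and in the adult for 2 of 9 matched, of which Rbm8a is also a member (median 0.63), from 1.81 for the export adaptor Alyref to -1.34 for the decay factor Upf2. Polyadenylation and exosome factors were called higher at E15 for 9 of 9 matched (median 0.79), with Exosc2 at 2.25. Other RNA-binding regulators of splicing and stability were called higher at E15 for 17 of 18 matched (median 1.24). Among them the neuronal splicing activator Srrm4 had 43, 18 and 39 raw counts at E15 against 0 in the adult, and the neuronal stabiliser Elavl4 had a log2 fold change of 3.51, while Pcbp3 was called higher in the adult (-1.19). Of the genes in these lists called higher in the adult, Pcbp3 stayed called under total-count scaling (-0.38), while Srpk2 (-0.03), Cdc5l (-0.13), Upf2 (-0.53) and the other 4 did not. Genes of these lists that the authors had not called carry no name here, which raises the shares called.

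Markers of the other cell types in the plexus give the setting of these values. Erythroid markers were called higher at E15 for 13 of 13 matched, endothelial markers for 8 of 8 and mesenchymal markers for 7 of 9, with 2 higher in the adult. Their summed normalised counts were 271571 to 393827, 8991 to 13111 and 50955 to 67203 at E15, and 9215 to 13269, 1034 to 1453 and 16414 to 17603 in the adult. The part of these cell types in the differences of the splicing and helicase genes was not tested.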

How the data were processed

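RNA from 3 pools of 10 rats at E15 and 3 in the adult was sequenced by the authors with an Illumina mRNA kit and 100 bp single reads, and whether the counting used strand is not given in the sources used here. The authors trimmed the reads, aligned them to Ensembl's rat genome of release 61 (Bowtie 0.12.7), kept unique alignments, and assigned these to nuclear genes by the union mode of HTSeq 0.4.7p4. The deposited values used here are these raw counts, without normalization. Counts of genes with near-identical copies, and of genes that overlap others, are uncertain. The authors' second table, from edgeR 2.4.0 with an exact test, gives fold changes and p-values whose values were not used. It is the list of called genes from which the members were taken, and it supplied gene names and descriptions. Genes absent from it could not be members, relatives or matched genes of a list.

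Genes with more than 10 counts in all were fitted with edgeR 4.0.16 (TMM, estimateDisp, glmQLFit, glmQLFTest; limma 3.58.1, R 4.3.3) with age as the only term, all 6 libraries included. Raw counts were scaled to the mean effective library size. Biological variation between pools had a coefficient of 18.2% (dispersion 0.0332). Members, families and gene lists were chosen with earlier results of these data known. Named genes are all Lin28, Igf2bp, Msi and tissue-regulated members, in each other family the 3 largest changes in each direction with a mean normalised count of at least 100 and the member with the highest raw count, genes with 0 counts at an age, and from each RNA-processing list the largest change in each direction. Of the members 50 meet this rule, and those named beyond it, the related pairs, the relatives under other names, the added sensors and the genes singled out in marker lists were chosen after their values were seen. Where an age had 0 counts, up to 3 counts over its pools were allowed, and ratios with 1 to 3 counts have exact 95% binomial intervals, both for counting error only. Deviations between pools used a pseudocount of 0.5. Symbols of all 91 members were matched to RefSeq, and promoters and hairpins came from RefSeq (GRCr8). A planned count of all family genes by RefSeq symbol was not run, because the RefSeq table used here holds no Ensembl identifiers, and 137 symbols of the lists were not analysed here.

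Alternatives were scaling by RLE and upper-quartile factors, by library totals with and without the 10 most abundant genes, no filter, filterByExpr, a mean count above 100, DESeq2 1.42.0, limma-voom, the exact test with a common dispersion, a fold above 2, the replicate number as a block and leaving out each library. The tests were tried on simulated counts. Summaries and figures used matplotlib 3.10.9, scipy 1.17.1, pandas 2.3.3 and numpy 2.4.6 under Python 3.11.15.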

Additional observations from a re-analysis of the deposited data

How the results depend on the processing

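By total counts alone, 4 members were called higher in the adult (4 also with a fold above 2, and 8 by total counts without the 10 top genes), while all genes called higher at E15 numbered 9799 and all genes called higher in the adult 2292, against 5772 and 4879. Total counts without the top genes gave 3196 adult calls and a fold above 2 gave 2979. A fold above 2 left 42 members at E15. Under total counts the signs of Rbm47 (0.055), Ddx5 (0.20), Hnrnpk (0.20), Hnrnph2 (0.25) and Dhx40 (0.27) turned, and 3 further of the 50 named members lost their call. With upper-quartile factors 1 did, and with RLE factors, no filter, DESeq2, limma-voom or the exact test none did. The stricter filters left 48 (filterByExpr) and 47 (mean count above 100) of the 50 to test, all with their calls. Leaving out 1 library gave 72 to 76 members at E15 and 12 to 13 in the adult, and over all genes 5009 to 6218 and 4328 to 5449. Samples of the same number share only the number (correlation of their deviations over genes -0.007, -0.011 and -0.038), and with the replicate number as a block 76 and 13 members and, of all genes, 5320 and 4608 were called. Depth limits Lin28, Lin28b, Rbm24, Snrpel and Dhx58, which had few reads at an age.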
